A study of Oryctolagus cuniculus with 9 samples.

Results

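The genes described here handle cellular iron or take part in ferroptosis, a form of cell death driven by iron and peroxidised lipid. They were chosen by symbol, as 10 genes for iron storage (FTL, FTH1), heme breakdown (HMOX1), uptake (TFRC), export (SLC40A1), sensing (IREB2), ferritin turnover (NCOA4), cystine import (SLC7A11), lipid supply (ACSL4) and lipid peroxide reduction (GPX4). Of these, 9 were found, each as 1 row, among 19511 loci. GPX4 was not analysed here, since 0 rows carried that name. RNA was sequenced from primary rabbit parathyroid cells in 9 libraries. The 3 control libraries came from untreated cells, labelled wild type and day 0. For the 3 injured libraries (H/R in the plots) cells spent 6 h without sufficient oxygen and then 6 h with oxygen restored, to mimic the ischaemia and reperfusion of a gland. For the 3 pretreated libraries (GA+H/R in the plots) cells first received 1200 µM gallic acid over 24 h, a phenolic compound from plants that can bind iron, and then the same injury. Whether the untreated and injured cells also waited out those 24 h is not stated, nor whether each library had its own animal or culture, so p-values measure the spread between libraries, which may be technical.

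Iron enters most cells bound to transferrin through the transferrin receptor TFRC, is stored inside a shell of light and heavy ferritin chains (FTL and FTH1), and leaves through ferroportin, the product of SLC40A1. The regulatory protein encoded by IREB2 binds RNA elements when iron is scarce. It then protects the TFRC transcript from decay and holds back translation of the ferritin transcripts, so ferritin protein can change without its RNA. NCOA4 carries ferritin to lysosomes, where its iron is set free, and HMOX1 frees iron from heme. In ferroptosis, ACSL4 prepares polyunsaturated fatty acids for membrane lipids, while SLC7A11 imports the cystine needed for glutathione, which GPX4 uses to reduce lipid peroxides.

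Levels are given in FPKM, fragment counts normalized by the authors for transcript length and sequencing depth, as deposited, and the read depth is unknown. Their sum per library was between 1648010 and 1696490 in control, 730117 and 752065 in injured cells, and 467499 and 516231 in pretreated cells. In log2 units of the deposited values, the median locus differed by -1.25 in injured against control cells, by -0.50 in pretreated against injured cells and by -1.77 in pretreated against control cells. Each library was therefore also divided by a factor set by its median locus, between 1.77 and 1.96 in control, 0.670 and 0.672 in injured cells, and 0.422 and 0.424 in pretreated cells. The words rose, fell and called refer to that scale, relative to the median locus, at an adjusted p under 0.05 in limma over all loci tested, and log2 changes are of the value plus 1. Control 1 correlated less with controls 2 and 3 (r from 0.983) than those did with each other (0.997). The parathyroid identity of the cells found little support in their markers. PTH, the hormone itself, was between 0 and 0.142 FPKM in the 9 libraries, and 3 of 10 listed parathyroid markers had no row.

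Uptake and storage transcripts moved in opposite directions relative to the median locus. In control, TFRC stood at 15263, 15047 and 13358 FPKM in libraries 1 to 3, in injured cells at 2157, 2218 and 2165, and in pretreated cells at 976, 976 and 1013. The 3 groups did not overlap, with control highest and the pretreated cells lowest. Relative to the median locus TFRC fell by 1.28 on the log2 scale in injured against control cells (SE 0.04, adjusted p = 5.40e-08 in limma). It fell by a further 0.48 in pretreated against injured cells (SE 0.04, adjusted p = 1.12e-04). Pretreated against control cells, it fell by 1.75 (SE 0.04, adjusted p = 3.03e-09). These 3 falls were called on each of 4 scales tried (relative to the median locus, deposited, quantile normalized and at equal totals). Changes lay between -2.74 and -1.28 in injured against control cells and between -1.14 and -0.48 in pretreated against injured cells. As deposited, most loci were called lower in each comparison (86%, 64.3% and 90.1% of all loci), so the calls on that scale add little.

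FTL, the light chain that helps the iron core to form, moved the other way. It was at 1567, 1518 and 1441 FPKM in the 3 controls, 2944, 2877 and 2903 in injured cells, and 2626, 2637 and 2649.8 in pretreated cells. The injured and the pretreated libraries lay above every control library as deposited, and the pretreated cells lay just under the injured cells. Relative to the median locus FTL rose by 2.41 in injured cells (SE 0.04, adjusted p = 1.19e-09 in limma), and on the deposited scale by 0.95. In pretreated against injured cells it rose by 0.52 (SE 0.04, adjusted p = 2.45e-05), whereas on the deposited scale it was at -0.14 (adjusted p = 0.0129), so the direction of this step depends on the scale. In pretreated against control cells it rose by 2.93, and by 0.81 as deposited.

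FTH1, the heavy chain that oxidises iron for storage, was almost level as deposited. Its values were 12214, 13435 and 12763 FPKM in control, 12675, 12726 and 12706 in injured cells and 10799, 10779.8 and 10952 in pretreated cells. The injured libraries lay inside the range of the controls, and the pretreated libraries under both. While most loci had lower FPKM in the injured and pretreated cells, FTH1 hardly moved, so relative to the median locus it rose by 1.45 in injured cells (SE 0.06, adjusted p = 1.78e-07 in limma) against -0.01 as deposited (adjusted p = 0.796). Comparing pretreated with injured cells, it rose by 0.44 (SE 0.06, adjusted p = 9.74e-04), against -0.23 as deposited (adjusted p = 6.86e-04). Set against control, in pretreated cells it rose by 1.89, against -0.24 as deposited. In the authors' deposited table, whose single test spans the 3 groups, FTH1 was the 1 gene of the 9 not marked significant (q = 0.139).

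**Figure D1:**
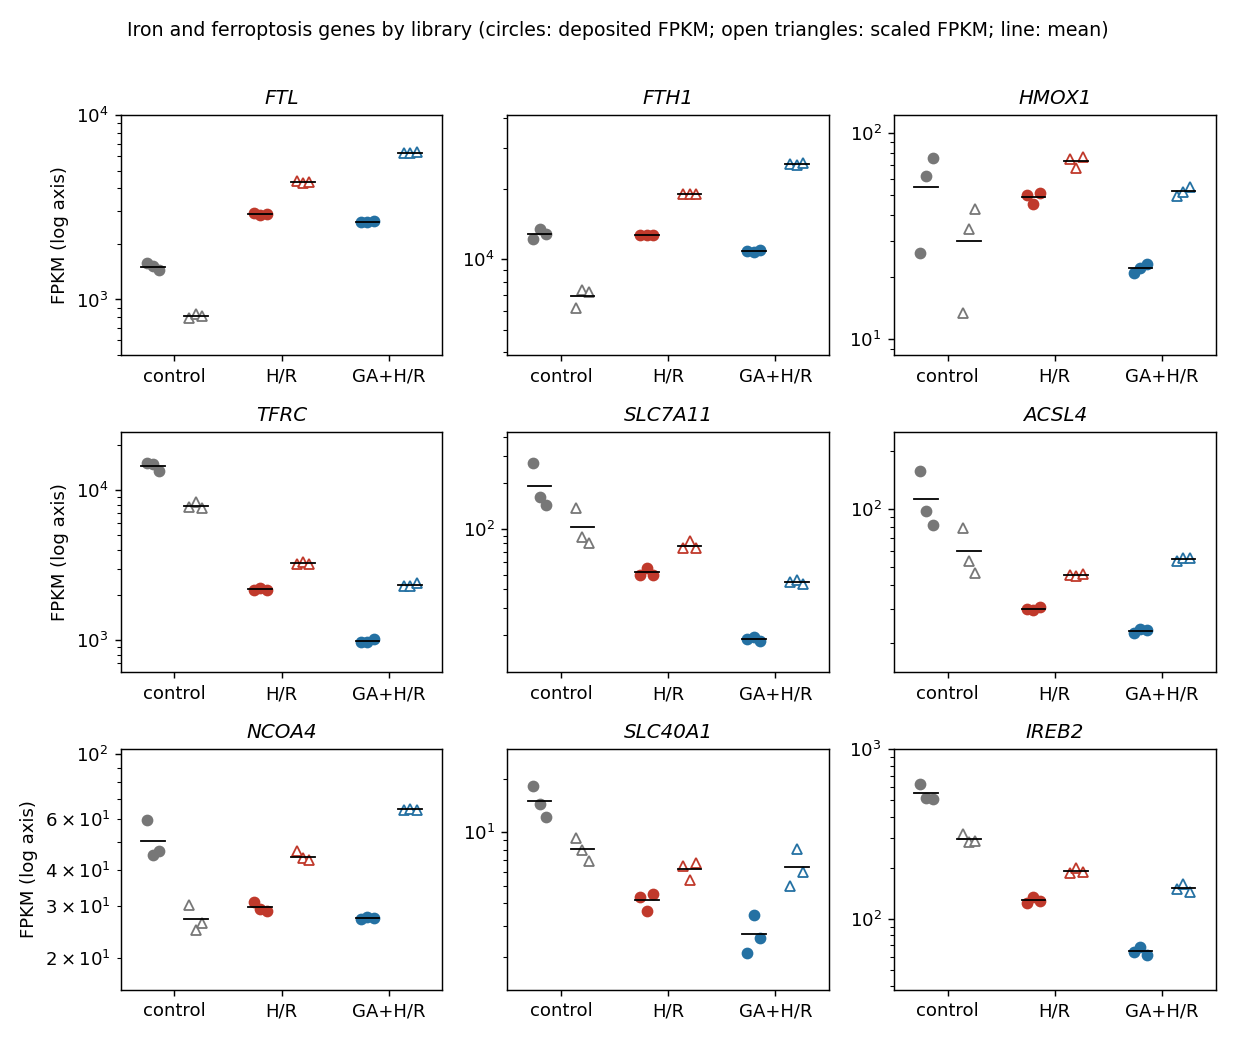
FPKM of the 9 genes in each of the 9 libraries on a log axis, as deposited (filled circles) and scaled to the median locus (open triangles), with a line at the mean of 3. TFRC and IREB2 step down from control to the injured cells to the pretreated cells on both scales, FTL lies above control in both other groups on both scales, and FTH1 is nearly level as deposited, at a mean of 12804 FPKM in control and 12702 in injured cells.

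The ratio of TFRC to FTH1 inside a library does not depend on how libraries are scaled. It was 1.25, 1.12 and 1.05 in the 3 controls, 0.170, 0.174 and 0.170 in injured cells and 0.0904, 0.0905 and 0.0925 in pretreated cells. No groups overlapped, and the ratio was 6.62-fold lower in injured cells than in control, 1.88-fold lower in pretreated than in injured cells and 12.5-fold lower in pretreated cells than in control. With 3 libraries against 3 the smallest p of the two-sided exact permutation test is 0.1. Each of these comparisons reached it (0.1 after adjustment over 12 comparisons of 4 ratios). TFRC has a long transcript and FTH1 a short one, and long and short housekeeping transcripts also moved apart, as described below. In pretreated against injured cells their median changes were -0.41 and 0.58, and in pretreated against control cells -0.94 and 1.56. The part of transcript length in this ratio was not tested.

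The other ratios shifted less. FTL to FTH1 was between 0.113 and 0.128 in control, 0.226 and 0.232 in injured cells and 0.242 and 0.245 in pretreated cells, which made the light chain 1.94-fold higher against the heavy chain in injured cells than in control and 1.06-fold higher in pretreated than in injured cells. TFRC to SLC40A1, uptake against export, was 1.88-fold lower in injured cells than in control and 1.40-fold lower in pretreated than in injured cells. That last log2 difference of -0.48 was -0.29 without pretreated library 2 and ranged to -0.64 without pretreated library 1. NCOA4 to FTH1 was 1.66-fold lower in injured cells than in control, and 1.07-fold higher in pretreated than in injured cells. In pretreated cells against control, FTL to FTH1 was 2.06-fold higher, TFRC to SLC40A1 2.63-fold lower and NCOA4 to FTH1 1.55-fold lower. In each of these 9 comparisons the groups did not overlap (exact permutation p = 0.1, the smallest possible). How often the groups part in this way for other gene pairs was not tested. A ratio shows unequal change of a pair of transcripts, not which of them moved.

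**Figure D2:**
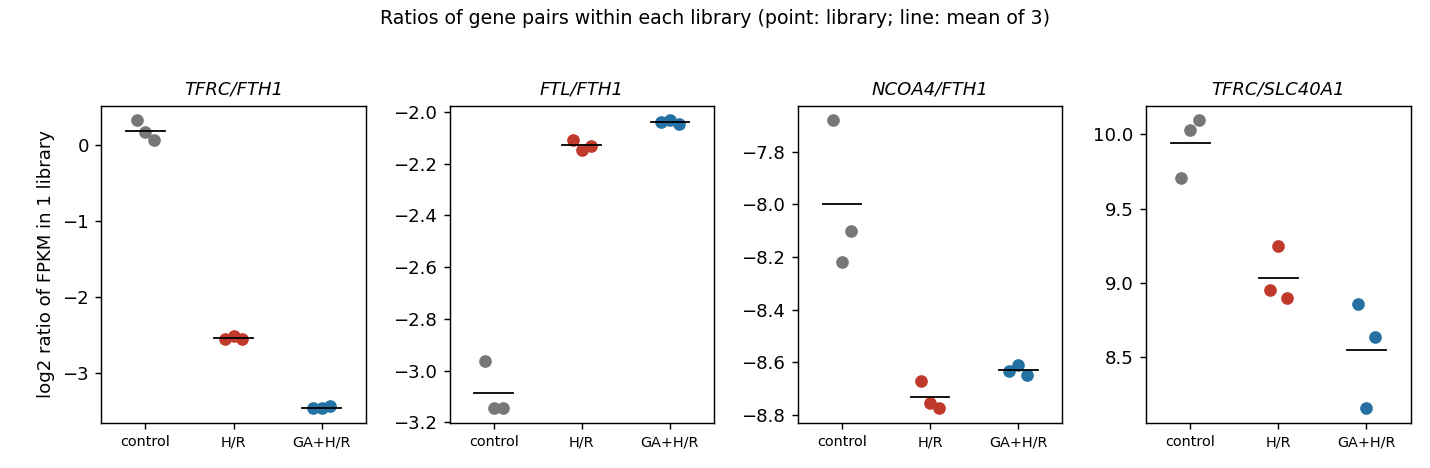
Log2 ratio of FPKM for 4 gene pairs within each library, with a line at the mean of 3 libraries. TFRC/FTH1 drops from a mean of 0.18 in control to -2.54 in injured cells and -3.46 in pretreated cells, and FTL/FTH1 rises from -3.08 to -2.13 and -2.04.

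IREB2, the iron-sensing regulator, followed the same order as TFRC. Its values were 625, 515 and 512 FPKM in control, 125, 134 and 127 in injured cells and 63.5, 68.5 and 61.2 in pretreated cells, with no overlap between groups. Relative to the median locus it fell by 0.63 in injured cells (SE 0.07, adjusted p = 5.47e-05 in limma), by a further 0.33 in pretreated against injured cells (SE 0.07, adjusted p = 0.00517) and by 0.96 in pretreated against control cells. All 3 falls were called on the 4 scales, and in each of the 9 fits that left out 1 library. As deposited, 86%, 64.3% and 90.1% of all loci were called lower in these comparisons, so the calls on that scale add little.

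SLC40A1, the sole known exporter of iron in mammals, was the least abundant of the 9 genes by FPKM. It stood at 18.2, 14.4 and 12.2 FPKM in control, 4.35, 3.65 and 4.54 in injured cells and 2.10, 3.43 and 2.55 in pretreated cells. The groups did not overlap as deposited, but scaled to the median locus the pretreated libraries overlapped with both the injured and the control libraries. Changes were -0.32 (SE 0.17, adjusted p = 0.135), 0.0094 (SE 0.17, adjusted p = 0.971) and -0.31 (SE 0.17, adjusted p = 0.130 in limma) in injured against control cells, pretreated against injured cells and pretreated against control cells. None was called relative to the median locus. Both changes against control were called as decreases on the other 3 scales, and that between pretreated and injured cells as deposited alone (-0.50, adjusted p = 0.0296).

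HMOX1, the inducible heme oxygenase, varied most within the controls. Control 1 had 26.3 FPKM and controls 2 and 3 had 61.9 and 75.3, while the injured cells stood at 49.7, 45.1 and 51.3 and the pretreated cells at 20.8, 22.02 and 23.2. As deposited, the injured libraries lay between control 1 and the other controls, and the pretreated cells lay under all other libraries. Relative to the median locus HMOX1 rose by 1.39 in injured against control cells (SE 0.34, adjusted p = 0.00701 in limma), or by 0.91 without control 1 (adjusted p = 1.35e-04), and as deposited it was at -0.03 (adjusted p = 0.923). Between pretreated and injured cells, it was at -0.47 (SE 0.34, adjusted p = 0.313), although the 2 groups did not overlap. Without control 1 the same -0.47 had an adjusted p of 0.00473, and on the deposited scale the change was -1.11 (adjusted p = 0.0121). In pretreated against control cells it rose by 0.92 (SE 0.34, adjusted p = 0.0369), a call that 9 of 18 alternatives ended and that turned to -1.14 as deposited (adjusted p = 0.00582). Without control 1 that rise was 0.44.

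Macrophages recycle heme iron and use HMOX1 and SLC40A1 for it, and their markers moved in these libraries. The summed FPKM of 11 macrophage markers ranged from 6.13 to 91.7 in control, from 27.1 to 33.04 in injured cells and from 178 to 195 in pretreated cells. Control 1 gave the lowest sum. MRC1, a mannose receptor, was at 1.55, 42.6 and 46.5 FPKM in the controls, and CD163, the receptor that takes up haemoglobin with haptoglobin, at 0.365, 3.83 and 4.03. With gallic acid before the injury, set against injury alone, 7 of 7 macrophage markers tested rose, where 18.7% of all loci rose. These 7 were of 15 listed, 11 with a row. The rise of CD14 and FCER1G carries no weight, since these 2 had passed the filter on low values through pretreated libraries alone. PTPRC and AIF1, which mark leukocytes and macrophages, were under the filter in all libraries. HMOX1 and SLC40A1 did not rise in that comparison. Against control, 2 of the 7 markers rose in injured cells and 7 in pretreated cells, where 29.2% and 33.7% of all loci rose. HMOX1 rose in both of those comparisons, and SLC40A1 was called in neither. The part of macrophages in the values of either gene was not tested. The summed FPKM of 10 fibroblast markers was far larger, from 128832 to 193230 in control. It ranged from 29429 to 29499 in injured cells and from 13933 to 14090 in pretreated cells. Of 9 fibroblast markers tested, 1 rose and 7 fell in injured against control cells, where 29.2% of all loci rose and 28.4% fell. Between pretreated and injured cells 1 rose and 4 fell, beside 18.7% and 15.2% of all loci. In pretreated against control cells 2 rose and 7 fell, beside 33.7% and 35.5% of all loci. PECAM1, the 1 endothelial marker tested, averaged 0.395 FPKM in control, 0.533 in injured cells and 1.26 in pretreated cells, and passed the filter through the 3 pretreated libraries alone, while 0 epithelial and 0 red cell markers passed the filter. In bulk RNA, fewer cells of a type and less RNA per cell cannot be told apart.

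NCOA4, the ferritin carrier, rose relative to the median locus at each step, but not as deposited. It stood at 59.6, 45.04 and 46.5 FPKM in control, 31.1, 29.4 and 28.98 in injured cells and 27.2, 27.6 and 27.3 in pretreated cells. Control libraries were highest and the pretreated cells lowest, without overlap. The change in injured against control cells was 0.69 (SE 0.08, adjusted p = 1.18e-04 in limma) relative to the median locus and -0.73 (adjusted p = 1.23e-04) as deposited. In pretreated against injured cells it rose by 0.53 (SE 0.08, adjusted p = 0.00161), against -0.12 as deposited (adjusted p = 0.340), and in pretreated against control cells by 1.23, against -0.85 as deposited.

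SLC7A11, the cystine and glutamate exchanger, fell with gallic acid on every scale. It was at 268, 160.2 and 142 FPKM in control, 50.02, 55.6 and 50.01 in injured cells and 18.96, 19.5 and 18.3 in pretreated cells, with no overlap between groups as deposited. Comparing pretreated with injured cells, it fell by 0.78 relative to the median locus (SE 0.17, adjusted p = 0.00797 in limma). The call held on all 4 scales, with changes between -1.41 and -0.78, and in each of the 9 fits without 1 library. As deposited, 64.3% of all loci were called lower in that comparison. Set against control, in pretreated cells SLC7A11 fell by 1.13 (SE 0.17, adjusted p = 2.94e-04). In injured against control cells it was at -0.36 (SE 0.17, adjusted p = 0.102), with overlapping scaled values, and at -0.13 without control 1. The call depended on control 3 and the scale there, since the change was -0.50 without control 3 (adjusted p = 0.0325) and -1.80 as deposited (adjusted p = 1.51e-05).

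ACSL4, the fatty acid ligase, was not called in any comparison relative to the median locus. Its values were 156, 97.1 and 81.98 FPKM in control, 30.1, 29.9 and 30.7 in injured cells and 22.5, 23.6 and 23.5 in pretreated cells, so that the groups stood in that order without overlap as deposited. Changes were -0.36 in injured against control cells (SE 0.16, adjusted p = 0.0862 in limma), 0.28 in pretreated against injured cells (SE 0.16, adjusted p = 0.223) and -0.09 in pretreated against control cells (SE 0.16, adjusted p = 0.649). Without control 3 the first was -0.53 and called (adjusted p = 0.0179), and without control 1 it was -0.14 and the second, still 0.28, was called (adjusted p = 0.0109), as it was with only these 2 groups in the fit (adjusted p = 0.00918). As deposited the changes against control were -1.80 and -2.17, both called.

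**Figure D3:**
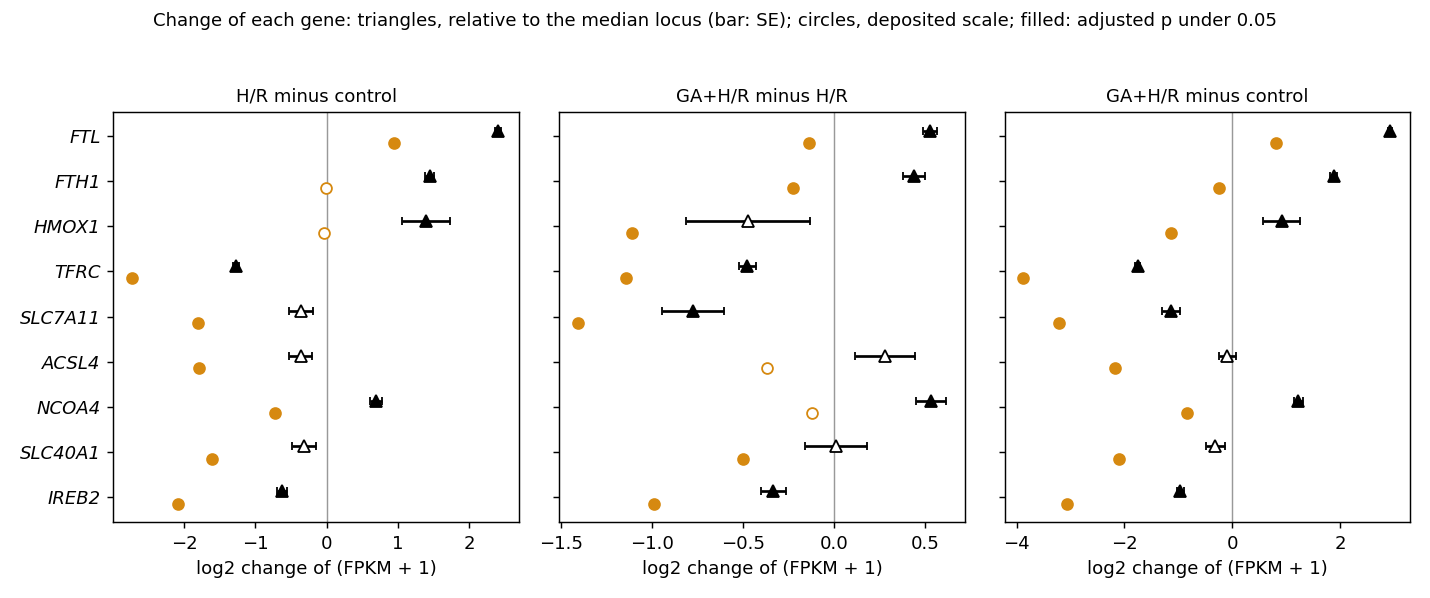
Log2 change of FPKM + 1 for each gene in the 3 comparisons, relative to the median locus (triangles, bars are SE) and as deposited (circles), filled where the adjusted p is under 0.05. TFRC and IREB2 lie to the left of 0 on both scales in every comparison, FTL lies to the right of 0 on both scales against control, and FTH1 and NCOA4 change side with the scale.

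Counted together, 4 of the 9 genes rose in injured against control cells (FTL, FTH1, HMOX1 and NCOA4), 2 fell (TFRC and IREB2) and 3 were not called. The share called, 66.7%, lay near the 57.6% of all 10956 loci tested, of which 29.2% were higher and 28.4% lower. Between pretreated and injured cells, 3 rose (FTL, FTH1 and NCOA4), 3 fell (TFRC, SLC7A11 and IREB2) and 3 were not called, where 33.9% of all loci were called, 18.7% higher and 15.2% lower. In pretreated against control cells, 4 rose (FTL, FTH1, HMOX1 and NCOA4), 3 fell (TFRC, SLC7A11 and IREB2) and 2 were not called, against 69.2% of all loci, 33.7% higher and 35.5% lower. The comparisons share libraries and are not independent. As deposited, the counts were 1 rising and 6 falling in injured against control cells, where 4.18% of all loci were called higher and 86% lower. They were 0 and 7 in pretreated against injured cells, against 1.69% higher and 64.3% lower, and 1 and 8 in pretreated against control cells, against 4.1% and 90.1%. In either direction 90.2%, 66% and 94.2% of all loci were called as deposited. After quantile normalization 4 genes rose and 3 fell in injured against control cells, where 57.7% of all loci were called, 25.7% higher and 32% lower. The next comparison, pretreated against injured cells, gave 3 and 3 there, against 35.4% of loci, 18.3% higher and 17.1% lower, and pretreated against control cells gave 4 and 4, against 70.9%, 30.4% higher and 40.4% lower. At equal totals the counts were 4 rising and 5 falling after injury, against 60.5% of loci, 19.3% higher and 41.1% lower. They were 3 and 3 with pretreatment against injury alone, against 29.5%, 12.4% higher and 17.1% lower, and 3 and 4 against control, against 73%, 24% higher and 49% lower. All 9 genes were over the minimum level in every library.

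Housekeeping genes listed as having short or long transcripts moved apart, and ferritin transcripts are known to be short and those of TFRC and IREB2 long. Of 23 short housekeeping transcripts tested, all 23 rose in injured against control cells, where 29.2% of all loci rose. Their median change was 1.13 (-0.23 as deposited), with a range from 0.40 to 2.42. The 2.41 of FTL lay at the upper end of that range and the 1.45 of FTH1 inside it. Of 29 long housekeeping transcripts, 22 fell and 0 rose, where 28.4% of all loci fell. Their median was -0.45 (-1.90 as deposited) and their lowest value -1.13. The -1.28 of TFRC lay under that lowest value and the -0.63 of IREB2 inside the range. With gallic acid before the injury, set against injury alone, the short transcripts had a median of 0.58 (-0.04 as deposited) and a highest value of 0.92, with FTL at 0.52 and FTH1 at 0.44, and the long ones a median of -0.41 and a lowest value of -0.94, with TFRC at -0.48, IREB2 at -0.33 and SLC7A11 at -0.78. In pretreated against control cells neither FTL nor TFRC lay beyond the ranges, with FTL at 2.93 under the highest short transcript at 3.18, and TFRC at -1.75 above the lowest long transcript at -1.80. The part of transcript length in these changes was not tested.

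A further ferritin heavy chain locus, named after its values were seen, stood higher in the injured and pretreated cells than in control on both scales. The table describes LOC100349285 as a partial FTH1 protein and annotates it as ferritin heavy chain. It was at 112, 139 and 114 FPKM in control, 455, 446 and 422 in injured cells and 341, 333 and 291 in pretreated cells. As deposited, every injured library lay above every control library, and every pretreated library below every injured library. Scaled to the median locus, every pretreated library lay above every injured library, at 810, 784 and 688 against 679, 665 and 628. LOC100349285 rose by 3.30 in injured against control cells relative to the median locus (SE 0.11, adjusted p = 3.56e-08 in limma), and was 1.86 higher as deposited. FTH1 rose by 1.45 there, and the difference between the loci was not tested. In pretreated against injured cells LOC100349285 was at 0.21 (SE 0.11, adjusted p = 0.161 in limma) and at -0.46 as deposited, so the direction of this step depends on the scale. Its FPKM was between 0.891% and 1.03% of that of FTH1 in control, between 3.32% and 3.59% in injured cells and between 2.66% and 3.16% in pretreated cells. The sources used here do not say how reads shared by near-identical copies were assigned, so the values of FTH1 and of this locus are uncertain. The same holds for NCOA4 and the NCOA4-like locus LOC100343344, which was between 6.50 and 9.15 FPKM. The other 10 loci annotated as ferritin were at 1.86 FPKM or less in each library.

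**Figure D4:**
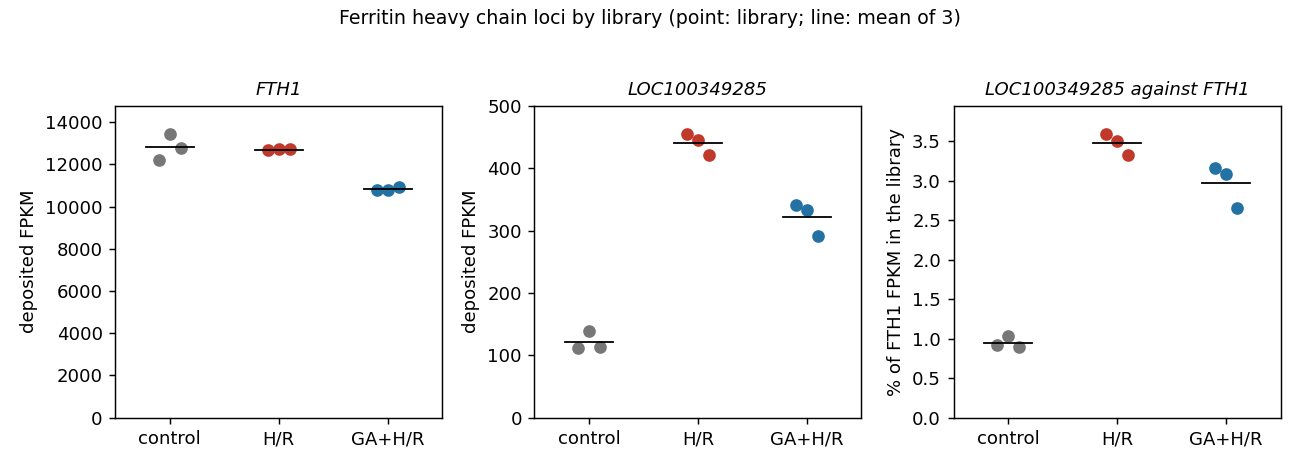
Deposited FPKM of FTH1 and of the ferritin heavy chain locus LOC100349285 in each library, and the second as a percentage of the first, with a line at the mean of 3 and axes from 0. LOC100349285 averages 122 FPKM in control, 441 in injured cells and 322 in pretreated cells, while FTH1 averages 12804, 12702 and 10844.

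Of 10 other genes of iron uptake tested in injured against control cells, 1 rose and 6 fell, where 29.2% of all loci rose and 28.4% fell. Their median was -0.50, beside a median of 0.0028 over all loci. SCARA5, a ferritin receptor, fell by 1.58 (adjusted p = 2.13e-04 in limma), STEAP2, a metalloreductase, by 1.09, and LRP1, a receptor that also takes up heme bound to hemopexin, by 0.97. SLC48A1, which moves heme out of lysosomes, rose by 0.93 but was at -0.48 as deposited. Comparing pretreated with injured cells, 0 rose and 2 fell, LRP1 by 0.93 and SLC11A2, the endosomal iron transporter, by 0.43, so that the 20% called lay below the 33.9% of all loci. Set against control, in pretreated cells 1 rose and 6 fell, with a median of -0.66, or 70% called beside 69.2% of all loci. Of 3 tested genes that serve iron or heme export, CP, the plasma ferroxidase ceruloplasmin, fell by 1.55 in injured cells (adjusted p = 0.00240) and FLVCR1, a heme exporter, by 0.71, while 0 rose. Between pretreated and injured cells, 1 rose and 1 fell, and against control 1 rose and 2 fell, where 33.9% and 69.2% of all loci were called.

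Genes of iron sensing and chaperoning numbered 7. In injured against control cells 2 rose and 3 fell, with a median of -0.32, in pretreated against injured cells 2 rose and 1 fell, and in pretreated against control cells 2 rose and 4 fell, or 71.4%, 42.9% and 85.7% called beside 57.6%, 33.9% and 69.2% of all loci. PCBP2, an iron chaperone, rose by 0.42 in injured cells (-1.04 as deposited). FBXL5, which marks the IREB2 protein for degradation when iron is plentiful, fell by 0.44 (adjusted p = 0.0138 in limma), and BMPR2, a receptor of bone morphogenetic proteins, by 1.10. Of 19 enzymes and carriers of heme and iron-sulfur clusters, 12 rose and 1 fell in injured cells (median 0.57, but -0.77 as deposited), where 29.2% of all loci rose and 28.4% fell. In pretreated against injured cells 5 rose and 1 fell, or 31.6% called beside 33.9% of all loci, and in pretreated against control cells 12 rose and 1 fell, beside 33.7% and 35.5% of all loci. GLRX5, an iron-sulfur cluster carrier, rose by 1.35 in injured cells, against -0.03 as deposited, while CISD2, an iron-sulfur protein of the endoplasmic reticulum, fell by 0.80. HMOX2, the constitutive heme oxygenase, rose by 0.60 in pretreated against injured cells (-0.06 as deposited).

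Of 11 genes of cystine and glutathione supply tested in pretreated against injured cells, 0 rose, 3 fell and 8 were not called. The 27.3% called lay below the 33.9% of all loci, of which 15.2% fell. SLC3A2, the partner chain of SLC7A11 in the exchanger, went from 307 to 119 FPKM and fell by 0.70 (SE 0.15, adjusted p = 0.00668 in limma). GCLC, the catalytic subunit of the first enzyme of glutathione synthesis, went from 62.6 to 25.2 FPKM and fell by 0.64 (SE 0.09, adjusted p = 0.00108). SLC1A5, a glutamine carrier, fell by 0.84. In injured against control cells 2 rose and 1 fell, and in pretreated against control cells 2 rose and 4 fell. The 27.3% and 54.5% called there lay below the 57.6% and 69.2% of all loci. CHAC1, which breaks down glutathione, rose by 1.01 in injured cells (-0.43 as deposited).

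Suppressors of ferroptosis other than GPX4 numbered 13, of which 6 rose and 4 fell in injured against control cells (median 0.51, -0.73 as deposited), 2 rose and 0 fell in pretreated against injured cells, and 6 rose and 3 fell in pretreated against control cells. The shares called were 76.9%, 15.4% and 69.2%, beside 57.6%, 33.9% and 69.2% of all loci. HSPB1, a small heat shock protein, rose by 1.72 in injured cells (0.28 as deposited), PRDX6, a peroxiredoxin that reduces phospholipid peroxides, by 0.95 (-0.48 as deposited) and AIFM2, which regenerates lipid-soluble antioxidants, by 0.88 (-0.54 as deposited), while VKORC1L1, a reductase of vitamin K, fell by 0.83. Of 14 promoters, 5 rose and 5 fell in injured cells, 3 rose and 0 fell in pretreated against injured cells, and 6 rose and 3 fell in pretreated against control cells, or 71.4%, 21.4% and 64.3% called. PTGS2, cyclooxygenase 2, which is often measured as a marker of ferroptosis, went from 3792 FPKM in control to 585 in injured cells and fell by 1.17 (adjusted p = 0.00379 in limma). DPP4, a membrane peptidase, fell by 1.40. PEBP1, which binds lipoxygenases, rose by 1.003 (-0.44 as deposited), and FADS2, a fatty acid desaturase, by 0.94 (-0.51 as deposited). Of 10 genes that deliver ferritin to lysosomes or work there, 3 rose and 2 fell in injured cells, 2 rose and 0 fell in pretreated against injured cells, and 5 rose and 2 fell in pretreated against control cells, or 50%, 20% and 70% called. LAMP2, a lysosomal membrane protein, fell by 1.36 in injured cells, and ATG16L1, which helps to build autophagosomes, rose by 0.65 (-0.79 as deposited).

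**Figure D5:**
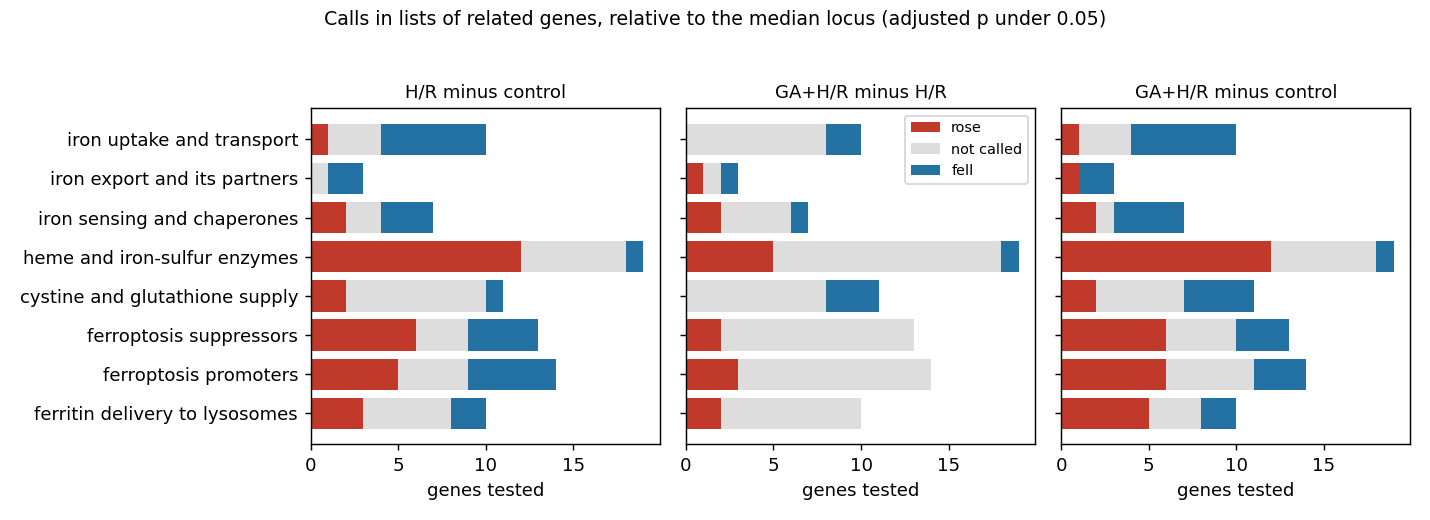
Number of genes tested in each of 8 lists of related genes that rose, fell or were not called relative to the median locus in the 3 comparisons, at an adjusted p under 0.05. The 19 heme and iron-sulfur genes show 12 rising and 1 falling in injured against control cells, and the 11 genes of cystine and glutathione supply show 0 rising and 3 falling in pretreated against injured cells.

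The loci most like FTL over the 9 libraries, by Pearson's correlation of scaled log2 values, were LOC100355416, LOC100348810, LOC103351326, LOC100348336 and LOC108176499, with r from 0.9995 to 0.9997. The table describes all of these but LOC103351326 as ribosomal proteins, and 659 loci had r over 0.98. For HMOX1 they were CAPZB, NDUFA4L2, ANXA8, FABP5 and FSCN1, with r from 0.968 to 0.976.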

How the data were processed

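The authors deposited 1 table of FPKM values with a column for each of 9 libraries, per the file headers. The table also holds the authors' p-value and q-value for 1 test across the 3 groups, per the file headers, made with a tool that, like the aligner and the quantifier, is unnamed in the labels and headers. The submitters' processing notes name only mouse genome builds, whereas the transcripts are those of rabbit, so no coordinates or sequences are given. The values carry no counts, so depth is unknown and precision rests on 3 libraries per group.

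A factor per library, its median ratio to the average of all libraries (loci with 1 FPKM or more in each of the 9), was divided out. Loci reaching 1 in 3 or more libraries entered limma 3.58.1 under R 4.3.3, as log2 of the value plus 1, with group means, trended and robust variance moderation and two-sided tests adjusted by Benjamini-Hochberg over 10956 loci. The procedure was tested on simulated data. Within-library ratios were compared by exact permutation. Each of the 9 genes with a row is described, and from other lists up to 4 called genes with the largest change and a mean of at least 1 FPKM could be named. The members, lists and scale were chosen with earlier results of these data known. Of 58 other loci that the table annotates to ferroptosis, a list added later, 34 were tested. In injured against control cells 11 rose and 11 fell, and in pretreated against injured cells 7 and 4. In pretreated against control cells 14 rose and 13 fell. The shares called were 64.7%, 32.4% and 79.4%, beside 57.6%, 33.9% and 69.2% of all loci. The alternatives tried were other scales, another added value (0.1), other filters, a plainer variance model, a replicate block, fits of only the groups compared and leaving out each library.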

Additional observations from a re-analysis of the deposited data

How the results depend on the processing

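The scale between libraries changed most. As deposited, 9922 loci were called in injured against control cells (4.64% of calls higher, against 50.7% of 6315 relative to the median locus) and 7255 in pretreated against injured cells (2.56% higher, against 55.2% of 3712). In pretreated against control cells 4.35% of calls were higher as deposited, against 48.7%. At equal totals the shares were 32.0%, 42.1% and 32.8%. Leaving out 1 library gave 5464 to 6367, 2705 to 4590 and 6869 to 7484 calls. Directions reversed as deposited for FTH1 (-0.010, -0.23 and -0.24 in injured against control cells, pretreated against injured cells and pretreated against control cells), NCOA4 (-0.73, -0.12 and -0.85), HMOX1 against control (-0.032 and -1.14) and, in pretreated against injured cells, FTL (-0.14), ACSL4 (-0.37) and SLC40A1 (-0.50). That last change, 0.0094 and not called, was also -0.014 after quantile normalization, -0.059 at equal totals, -0.07 without injured library 2 and -0.15 without pretreated library 2, a range of -0.15 to 0.15 over single libraries left out. ACSL4 in pretreated against control cells ranged from -0.25 to 0.13 (without control 1), not called. SLC40A1 was called in pretreated against control cells without pretreated library 2 (-0.47, adjusted p = 0.0242 in limma). HMOX1 in pretreated against control cells was not called at equal totals (0.55), with no filter, with 2 groups alone, or without any 1 of the injured or pretreated libraries. The cause of these changes was not tested. Ratios within a library kept their direction in all 84 alternatives, between -3.70 and -3.57 for TFRC/FTH1 in pretreated against control cells when 1 library was left out. Samples with the same replicate number did not deviate together (r from -0.02 to 0.03 over 9 pairs). With the replicate number as a block, 6142, 3385 and 7441 loci were called, and no call of the 9 genes changed.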

Other observations

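GPX4 belongs to the glutathione peroxidases, enzymes that reduce peroxides with glutathione, and other members of that family can be described. GPX1, the main cytosolic enzyme, was level as deposited, at 141 ± 37.0 FPKM in control, 130 ± 1.54 in injured cells and 143 ± 3.57 in pretreated cells (SD, n = 3). Relative to the median locus it rose by 1.36 in injured against control cells (SE 0.12, adjusted p = 1.73e-05 in limma) and by 0.80 in pretreated against injured cells (SE 0.12, adjusted p = 0.00114), where the deposited values differed by -0.09 and 0.14. GPX8, an enzyme of the endoplasmic reticulum, went from 279 ± 4.24 to 94.2 ± 3.89 and 68.2 ± 6.82 FPKM, and GPX7, of the same compartment, from 82.04 ± 16.7 to 27.7 ± 2.94 and 22.7 ± 2.02. Neither GPX7 nor GPX8 was called in any comparison relative to the median locus. GPX3, the secreted form, was at 23.6 ± 5.16, 9.47 ± 0.818 and 7.56 ± 0.708 FPKM, and was called only in pretreated against control cells (0.47, adjusted p = 0.00947). LOC100338525, which the table describes as glutathione peroxidase 1, averaged 3.38 FPKM in control, 10.3 in injured cells and 10.2 in pretreated cells. It rose by 2.56 in injured against control cells (adjusted p = 2.58e-06 in limma), by 0.62 in pretreated against injured cells (adjusted p = 0.0186, although the deposited means were close) and by 3.18 in pretreated against control cells, and how reads were split between it and GPX1 is not known. GPX2 was at 0.242 FPKM or less in each library.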
